A study of Homo sapiens with 8 samples.

Results

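The replication-dependent histone genes were taken by name as the genes called H1-1 to H1-6 or carrying an H2AC, H2BC, H3C or H4C number, which gave 66 of the 62703 genes in the count tables. They comprised 6 linker histone genes (H1), 16 H2A, 17 H2B, 13 H3 and 14 H4 genes, 55 of them in the large cluster at 6p22 (hg38, chr6:25723397-27893891) and 11 in the smaller cluster at 1q21 (chr1:149782689-149887965). The measurements were single-cell transcript counts, as unique molecular identifiers (UMIs), from HepaRG, a human hepatic cell line that was used terminally differentiated, after 7 days in culture and 24 h of exposure. The whole study therefore rests on 1 cell line and 1 exposure time. The treatments were brefeldin A (0.001, 0.01 and 0.1 µM), an inhibitor of transport out of the endoplasmic reticulum, cycloheximide (0.2, 2 and 20 µM), an inhibitor of translation, etoposide (0.25, 2.5 and 25 µM), a topoisomerase II poison, rotenone (0.2 and 0.4 µM), an inhibitor of mitochondrial complex I, tert-butylhydroquinone (tBHQ; 3, 30 and 300 µM), an activator of the NRF2 antioxidant response, tunicamycin (0.001, 0.01 and 0.1 µM), an inhibitor of N-glycosylation, and troglitazone, a PPARγ agonist that the cell table gives at 50 µM. The controls were 0.1% dimethyl sulfoxide (DMSO) and a group named medium in the cell table, which says no more about it. Cells of all groups, controls included, were dissociated in the presence of actinomycin D, which blocks transcription, and anisomycin, which blocks translation. The question behind the design was how differentiated liver cells respond to these stressors one cell at a time.

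The tables held 12976 cells and 1002686268 UMIs in 8 sublibraries of 1 pool, which shared 0 barcodes and in which the summed histone genes had 360 to 400 UMIs per 1000000 (CPM). A sample below means the cells of 1 treatment and dose from 1 run of the experiment, and 38 samples with 37 to 1434 cells past the filter (8340 cells in all) and 1741603 to 97081214 UMIs were used. What a run number stands for was not given, and the study's methods state 1 biological replicate per condition, so the spread between runs may be technical. DMSO had 4 samples (runs 3, 4, 5 and 6). The hepatocyte identity held in these, with 9 of 9 hepatocyte markers at 1 CPM or more in every DMSO sample and a sum of 10753 to 26579 CPM, against 121 to 239 CPM for 7 fibroblast, 105 to 168 for 6 cholangiocyte, 54.8 to 96.5 for 4 endothelial and 12.03 to 34.6 for 5 immune markers. Of the fibroblast markers 6 of 7 were also at 1 CPM or more in every DMSO sample, and COL1A2, a collagen gene, was at 0 in each. That count was 3 of 6 for cholangiocyte, 2 of 4 for endothelial and 2 of 5 for immune markers. The share of cells with a UMI of MKI67, a gene of cycling cells, ran from 9.62% in tBHQ 30 µM to 77.7% in rotenone 0.4 µM (run 5).

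Core histones H2A, H2B, H3 and H4 wrap DNA into nucleosomes and the H1 linker histones bind where DNA enters and leaves them. The genes described here are made in bulk when DNA is copied, and their usual mRNA is the only kind in animal cells that ends in a stem-loop in place of a poly(A) tail: the stem-loop is bound by SLBP, and cleavage just after it uses the U7 snRNP with LSM10 and LSM11. In differentiated cells some of these genes are also known to give longer, polyadenylated transcripts that run past the stem-loop. The libraries were labelled as made from polyA RNA, and the counts do not separate these transcript ends, so a UMI of a histone gene can come from either form.

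All 66 genes carried the 16-base stem-loop, 23 to 68 bases after the stop codon. There were 10 versions of it, and the commonest was shared by 38 genes. All 14 H4 genes began the stem with GGCCC, while 0 of the 52 other genes did. The stem-loops of genes on which the results below turn are shown 5′ to 3′ as read from hg38, with the stem and loop in capitals and 5 bases on each side, so that the levels can be read against how alike the ends of the genes are:

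H1-4 (chr6:26157095-26157110, plus strand): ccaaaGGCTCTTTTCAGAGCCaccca
H2AC6 (chr6:26124669-26124684, plus strand): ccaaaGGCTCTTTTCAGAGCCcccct
H2AC11 (chr6:27133515-27133530, plus strand): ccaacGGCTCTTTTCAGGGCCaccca
H2BC15 (chr6:27839090-27839105, plus strand): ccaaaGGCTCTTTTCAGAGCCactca
H2BC5 (chr6:26158587-26158602, plus strand): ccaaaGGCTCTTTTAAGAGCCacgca
H2BC11 (chr6:27132321-27132336, minus strand): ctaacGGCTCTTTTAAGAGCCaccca
H3C6 (chr6:26225596-26225611, plus strand): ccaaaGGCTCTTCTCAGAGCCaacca
H4C3 (chr6:26104317-26104332, plus strand): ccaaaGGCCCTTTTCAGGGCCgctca

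The genes differed in what the annotation places after that stem-loop. In 52 genes, here called compact, every annotated transcript stopped within 100 bases of it. In the other 14, here called extended, at least 1 annotated transcript went further: H2AC1, H2AC6, H2BC4, H2BC5, H2BC6, H2BC11, H2BC15, H2BC18, H2BC21, H3C6, H3C10, H4C8, H4C14 and H4C15. H2AC6 (chr6:26124145-26139116) reached 14432 bases past its stem-loop and H2BC15 (chr6:27838545-27855709) reached 16604, whereas H1-4 (chr6:26156329-26157115) ended 5 bases after it. H1-4 and H2AC6 have the same 16-base stem-loop and fall on opposite sides of this split. The split was made after the counts were seen, so it is used below only to describe.

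Promoters were searched because these genes are known to share short promoter elements and are transcribed together. RefSeq promoters (GRCh38.p14, 250 bases before to 50 after the start) matched 61 of the 66 genes. CCAAT on either strand was in 85.2% of them against 34.6% of all 35116 promoters of the same length, and TATAAA on either strand in 68.9% against 11.5%. The share was alike in compact and extended genes, at 87.2% and 78.6% for CCAAT and 70.2% and 64.3% for TATAAA. The 250 bases before the start are shown for 1 compact and 1 extended gene that stand out below. CCAAT and TATAAA of both strands are in capitals (ATTGG and TTTATA are the same letters read from the other strand). A TTTATA of H2BC11 that overlaps its first TATAAA is not marked in full:

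H1-4 (GRCh38.p14, chr6:26156079-26156328, plus strand): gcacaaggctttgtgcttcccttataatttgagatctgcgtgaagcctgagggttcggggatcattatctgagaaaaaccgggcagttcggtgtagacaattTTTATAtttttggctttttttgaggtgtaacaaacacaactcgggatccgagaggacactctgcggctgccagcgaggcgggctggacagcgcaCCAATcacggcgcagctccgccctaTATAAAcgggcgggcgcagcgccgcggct
H2BC11 (GRCh38.p14, chr6:27132796-27133045, minus strand): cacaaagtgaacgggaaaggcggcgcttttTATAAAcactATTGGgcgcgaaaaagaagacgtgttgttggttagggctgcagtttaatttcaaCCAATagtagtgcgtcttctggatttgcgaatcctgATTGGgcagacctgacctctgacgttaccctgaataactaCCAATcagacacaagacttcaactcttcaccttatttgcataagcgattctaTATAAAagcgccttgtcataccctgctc

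Over all cells the 66 genes held 377055 UMIs. The 10 highest genes held 83.9% of them, the 14 extended genes 73.0% and the 52 compact genes 27.0%. Of the 66 genes, 10 had 1 to 9 UMIs, and 3 had none (H3C7, H3C8 and H4C7). A count of 0 here allows up to 3 UMIs among all of those counted. Copies are hard to tell apart in places: 16 genes shared over 50% of their 50-base stretches with another annotated gene and 9 over 90%, for 11 and 8 of which another histone gene of the list was enough, so the split of reads between such copies is uncertain. H4C15, an H4 gene nearly identical to H4C14, had 580 UMIs, and the H3 gene H3C15 had 3.

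The most abundant histone gene in DMSO was H2AC6, which encodes core histone H2A. It had 81.7, 81.6, 80.2 and 59.6 CPM in runs 3, 4, 5 and 6 (75.8 ± 10.8, SD, n = 4), so the first 3 samples were nearly equal and run 6 stood below them. H2BC15, an H2B gene, followed with 46.8, 37.2, 35.4 and 26.6 CPM. Its 36.5 ± 8.28 CPM (SD, n = 4) did not overlap H2AC6 in any sample.

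Behind them came H2BC5 at 28.8 ± 4.26 CPM and H2BC4 at 26.0 ± 6.16 CPM, both encoding H2B, and H3C6 at 24.2 ± 5.74 CPM, the leading H3 gene (SD, n = 4 each). Their samples overlapped, so the order of these 3 was not set beyond their spread. The same was true of H2BC18 (17.6 ± 4.02 CPM) and H2BC21 (17.6 ± 8.29 CPM). All 7 of these leading genes were extended. H1-2 (13.0 ± 5.44 CPM) and H1-4 (12.8 ± 4.70 CPM), the 2 leading linker histone genes, were the first compact genes in the order. Then came H3C12 (7.27 ± 0.889 CPM), an H3 gene whose span overlaps H2AC17, H4C3 (6.40 ± 3.53 CPM), the leading H4 gene, and H2BC11 (4.94 ± 1.93 CPM). H4C3 lies inside the annotated span of H2BC4 on the opposite strand.

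**Figure D1:**
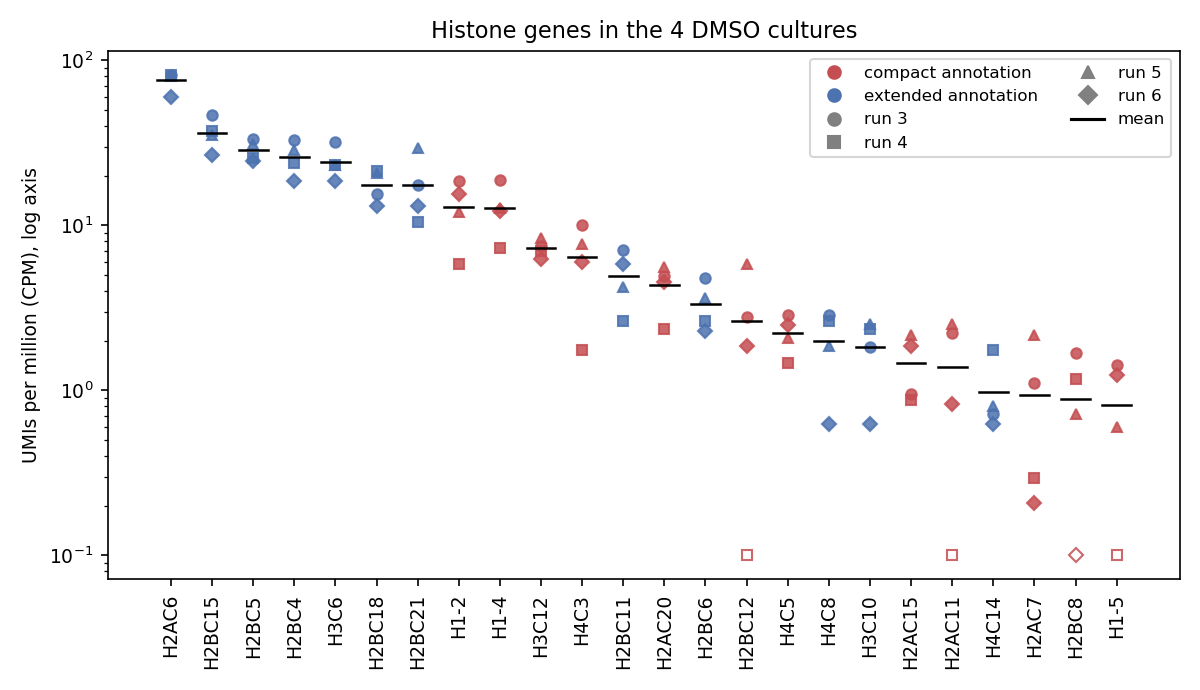
CPM (log axis) of the 24 histone genes with the highest mean in the 4 DMSO samples, 1 symbol per run, colour for the compact or extended annotation, bars for the mean and open symbols at the bottom for samples with 0 UMIs. The 7 highest genes are extended, and run 4 (squares) lies lowest for H1-2, H1-4 and H4C3.

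Per kb of annotated exon the order changed. H2AC6 still led at 45.4 ± 6.50 CPM per kb and H2BC5 followed at 33.5 ± 4.95, but H1-2 (17.8 ± 7.44), H1-4 (16.2 ± 5.98) and H4C3 (15.8 ± 8.70) were now ahead of H2BC18 (9.81 ± 2.24 CPM per kb), H3C6 (9.04 ± 2.14) and H2BC15 (8.55 ± 1.94). The last 3 have long annotated exons, so these values depend on which transcripts the annotation holds.

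The compact and extended genes varied differently between DMSO samples. The compact genes summed to 82.9, 31.6, 77.1 and 54.8 CPM in runs 3 to 6, and the extended genes to 278, 236, 263 and 184 CPM. Among the 11 treatments and doses with a sample in both run 3 and run 4, the compact sum was higher in run 3 in 9, the extended sum in 4, MKI67 CPM in 10 and the share of cells with MKI67 in 9. In DMSO that share was 42.4%, 11.0%, 33.4% and 17.2% in runs 3 to 6, the same order as the compact sum. The part of cycling cells in the level of a sample was not tested, and in a sum over cells more cells expressing a gene and more RNA per cell cannot be told apart.

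Over all 38 samples the extended sum ran from 184 CPM (DMSO run 6) to 517 CPM (cycloheximide 20 µM run 4) and the compact sum from 31.6 CPM (DMSO run 4) to 227 CPM (tBHQ 3 µM). The linker histone genes, all compact, had the largest ratio of highest to lowest sample of the 5 classes, from 13.1 CPM in troglitazone 50 µM (run 4) to 161 CPM in tunicamycin 0.1 µM (run 3). H1-4 alone reached 101 CPM there, while its lowest sample had 6.04 CPM. The other classes include extended genes, and their compact genes alone also ranged widely. These ran from 4.39 to 42.4 CPM for H2A, 1.46 to 17.1 for H2B, 3.78 to 22.2 for H3 and 4.68 to 35.1 for H4.

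**Figure D2:**
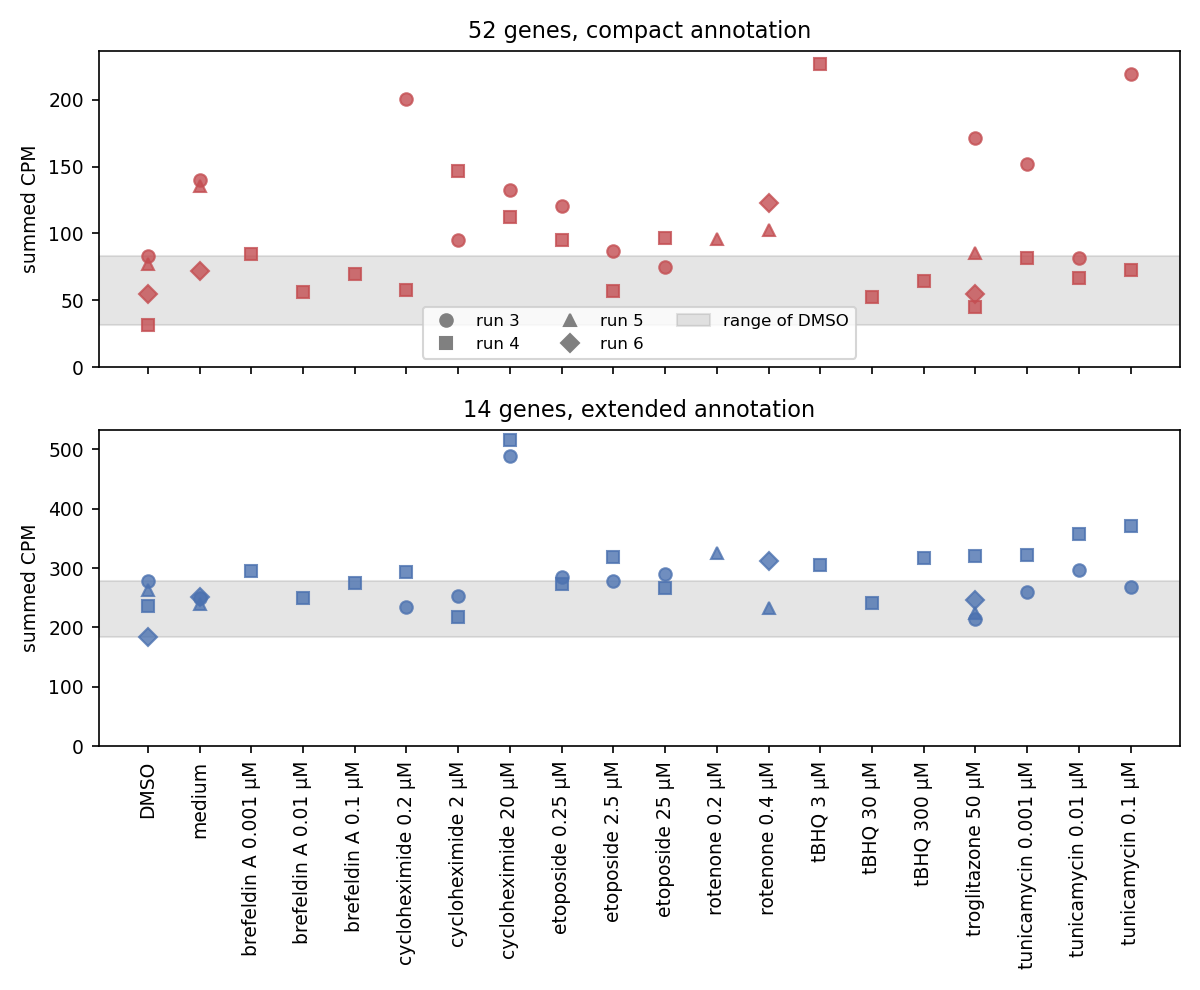
Summed CPM of the compact (upper panel) and the extended (lower panel) histone genes in each sample, by treatment and dose, with a symbol per run and the range of the 4 DMSO samples in grey. Both cycloheximide 20 µM samples stand above all others in the lower panel, at 489 and 517 CPM, and tBHQ 3 µM is highest in the upper panel, at 227 CPM.

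Cycloheximide at 20 µM raised a set of histone genes. Of the 28 tested, 7 were higher than in DMSO and 0 were lower (edgeR quasi-likelihood test, Benjamini-Hochberg adjusted p under 0.05), where 6.52% of all 18706 genes tested were higher and 13.2% lower. Of the 7, 5 were extended. At an unadjusted p under 0.05 there were 10 histone genes, and DESeq2 also called 7 higher and 0 lower. In all 26 of the 28 had a positive log2 fold change, and the median over the 28 was 0.83 against -0.12 over all genes.

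H2BC6, an H2B gene, changed most. It had 19.4 and 32.7 CPM in the cycloheximide 20 µM samples against 4.78, 2.63, 3.62 and 2.28 CPM in DMSO. The lowest treated sample was thus far above the highest control, and the log2 fold change was 2.86 ± 0.36 (SE; edgeR adjusted p = 0.00029). H2BC5, an H2B gene that lies beside it, had 95.3 and 124 CPM against 24.7 to 33.5 CPM, a log2 fold change of 1.91 ± 0.21 (edgeR adjusted p = 0.00013). H2AC6, already the most abundant gene, rose from 59.6 to 81.7 CPM in DMSO to 164 and 191 CPM, a log2 fold change of 1.23 ± 0.20 (edgeR adjusted p = 0.0013). These 3 genes passed under every alternative that was run.

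The other 4 were less secure. H2BC18 had 38.8 and 39.6 CPM against 13.1 to 21.4 CPM (log2 fold change 1.15 ± 0.26, edgeR adjusted p = 0.0088). The H2BC18 call was lost in 2 of 15 alternatives, and its log2 fold change was 1.04 to 1.25 when 1 sample was left out. H2BC4 had 47.8 and 51.4 CPM against 18.5 to 32.7 CPM (log2 fold change 0.91 ± 0.25, edgeR adjusted p = 0.024). The H2BC4 call was lost in 6 of 15 alternatives, among them those without DMSO run 4 or run 6. Its log2 fold change was 0.79 to 1.05 when 1 sample was left out. H1-2, a linker histone gene, had 25.7 and 48.7 CPM against 5.85 to 18.5 CPM (log2 fold change 1.45 ± 0.38, edgeR adjusted p = 0.020), but without the run 4 treated sample its log2 fold change was 0.96 (edgeR adjusted p = 0.17). H2AC8, an H2A gene, rested on 1 sample: it had 7.81 CPM in run 3 and 1.07 CPM in run 4 against 0 to 2.10 CPM in DMSO, so the groups overlapped. Its log2 fold change was 2.34 ± 0.75 (edgeR adjusted p = 0.046) with run 3 and 0.08 without it.

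The 2 genes with a log2 fold change below 0 were H2BC15 and H3C12. H2BC15 had 21.1 and 27.3 CPM in cycloheximide 20 µM and H3C12 1.07 and 7.21 CPM, and neither passed the test (edgeR adjusted p = 0.14 and 0.45). The treated samples had MKI67 UMIs in 29.8% (run 3) and 10.8% (run 4) of cells, against 11.0% to 42.4% in DMSO, and MKI67 was not called. At 0.2 µM and 2 µM cycloheximide 0 of 25 and 0 of 28 histone genes were called by edgeR (background 0% and 0.00502% higher, 0% and 0% lower), with 2 and 3 at an unadjusted p under 0.05 and 1 and 2 called higher by DESeq2. The compact sum in cycloheximide 0.2 µM was 200 CPM in run 3 and 58.0 CPM in run 4, so the samples of that dose lay on either side of most others.

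Among genes that handle histones, H1-10, a linker histone gene outside the replication-dependent set, was higher in cycloheximide 20 µM (log2 fold change 1.83, edgeR adjusted p under 0.05). In the list of 21 genes of histone mRNA processing and transcription 2 were higher, UPF1 (1.11), a helicase needed for histone mRNA decay, and ERI1 (0.84), a nuclease that trims the histone stem-loop, and 1 was lower, the transcription factor gene POU2F1 (-1.41). Of 13 histone chaperones 2 were higher, SSRP1 (1.44) and SUPT16H (0.68), the subunits of FACT. Of 21 S-phase genes 3 were higher and 0 lower, of 21 G2/M genes 0 passed, and of 5 p53 arrest genes 2 were higher, GADD45A (1.00) and CDKN1A (0.92). These small counts have to be read against all genes tested, of which 6.52% were higher and 13.2% lower.

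In rotenone 0.4 µM histone genes moved in both directions, as genes did at large. Of the 28 tested, 6 were higher and 8 lower than in DMSO, where 19.1% of all 19831 genes tested were higher and 42.2% lower (edgeR, adjusted p under 0.05). The median over all genes was -0.56 on the log2 scale under scaling by total UMIs, which was the scaling used here, and a fold change has to be read against that. With TMM factors 9 histone genes were higher and 6 lower, against 5570 higher and 6078 lower of all genes. The run 5 sample had a median of 184485 UMIs per cell and the run 6 sample 45113, against 17080 to 79381 in DMSO, and MKI67 UMIs were in 77.7% (run 5) and 52.7% (run 6) of cells, against 11.0% to 42.4% in DMSO. The part of depth and of cycling cells in the changes below was not tested.

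H2BC11, an H2B gene, had the largest log2 fold change of the histone genes tested. It had 44.1 CPM in run 5 and 105 CPM in run 6, against 7.09, 2.63, 4.22 and 5.81 CPM in DMSO. Both treated samples were far above every control, and the log2 fold change was 3.86 ± 0.37 (edgeR adjusted p = 4.2e-06). H4C4, an H4 gene at only 0.208 to 0.509 CPM in DMSO, had 1.35 and 4.76 CPM (log2 fold change 2.71 ± 0.58, edgeR adjusted p = 0.0015). Its DMSO samples were too low for the count filter, so H4C4 entered the test through rotenone, the side where it was high. H2AC6 had 137 and 135 CPM against 59.6 to 81.7 CPM, a smaller change in the gene with most counts (0.84 ± 0.20, edgeR adjusted p = 0.0029).

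H1-4 had 27.7 to 31.2 CPM in rotenone 0.4 µM against 7.32 to 18.8 CPM (log2 fold change 1.17 ± 0.30, edgeR adjusted p = 0.0047). The adjusted p was 0.11 in a fit of all samples together. H4C3 had 12.8 and 25.3 CPM against 1.76 to 10.1 CPM (log2 fold change 1.46 ± 0.44, edgeR adjusted p = 0.012), and 0.91 with an edgeR adjusted p of 0.17 without run 6. H2AC7, an H2A gene that shares sequence with another gene, had 1.83 and 7.42 CPM against 0.208 to 2.16 CPM, so its groups overlapped (log2 fold change 1.77 ± 0.66, edgeR adjusted p = 0.033), and without run 6 its log2 fold change was 0.56.

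The 8 lower genes were mostly those that led in DMSO. H2BC15 had 4.70 and 8.96 CPM against 26.6 to 46.8 CPM (log2 fold change -2.49 ± 0.34, edgeR adjusted p = 5.8e-05). H3C6 had 3.92 and 5.69 CPM against 18.5 to 32.2 CPM (-2.30 ± 0.32, edgeR adjusted p = 6.0e-05). H2BC4 had 5.83 and 7.00 CPM against 18.5 to 32.7 CPM (-2.05 ± 0.30, edgeR adjusted p = 0.00010). In none of these 3 did a treated sample come near a control.

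H2BC18 (log2 fold change -1.94 ± 0.35, edgeR adjusted p = 0.00041) and the compact H3 gene H3C12 (-1.69 ± 0.33, edgeR adjusted p = 0.00073) also fell without overlap. H4C8, an extended H4 gene, had 0.235 and 0 CPM against 0.623 to 2.87 CPM, so its log2 fold change of -3.33 ± 0.67 (edgeR adjusted p = 0.00099) is set by the fit where a sample has no UMI. The calls of 2 lower genes depended on scaling: H2BC5 was at -0.96 (edgeR adjusted p = 0.0044) but at -0.51 (edgeR adjusted p = 0.089) with TMM factors, and H2AC15, an H2A gene, at -1.47 (edgeR adjusted p = 0.035) but at -1.02 (edgeR adjusted p = 0.13). Without the run 6 treated sample H2AC15 was at -1.14. H4C8 and H2AC15 passed the count filter through the DMSO samples, the side where they were high. H2BC4, H2BC5, H2BC18 and H2AC6, which all rose in cycloheximide 20 µM, thus went in different directions in rotenone 0.4 µM, and both comparisons share the DMSO samples.

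**Figure D3:**
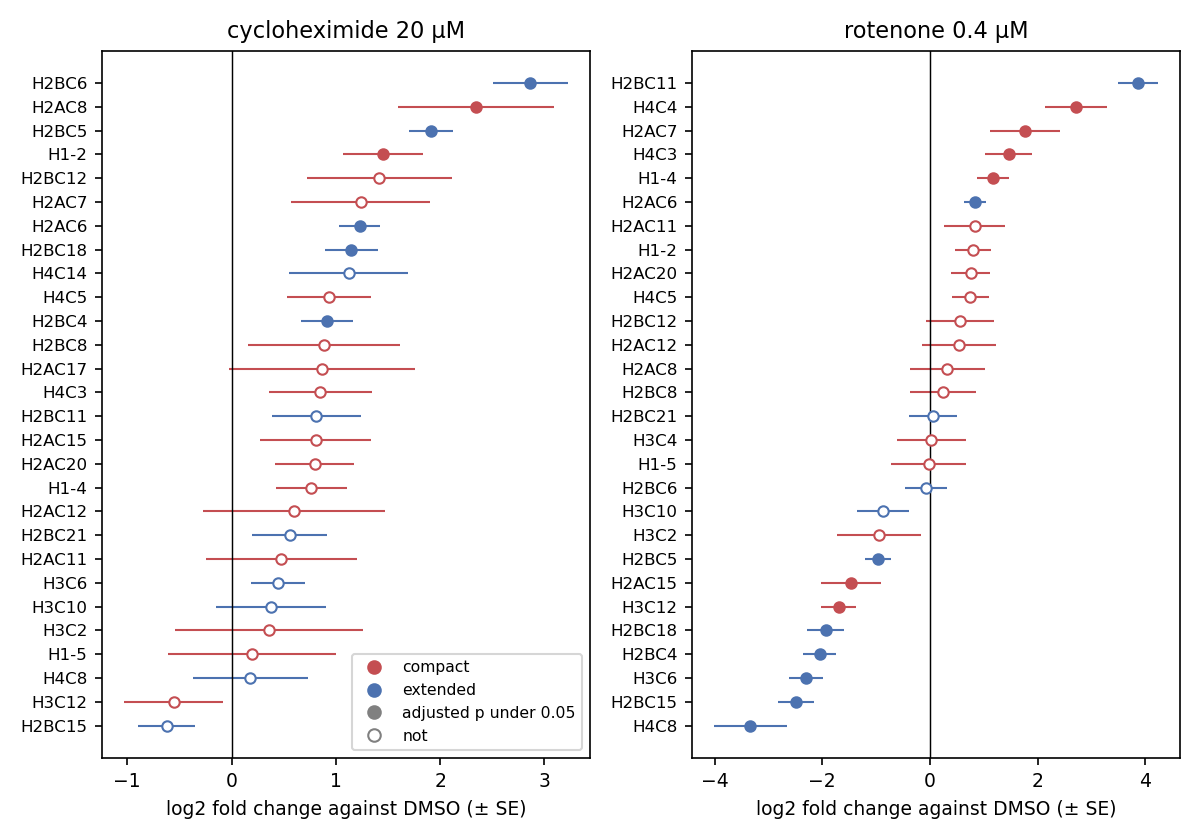
Log2 fold change against DMSO (± SE) of each histone gene tested in cycloheximide 20 µM (left, 2 samples) and rotenone 0.4 µM (right, 2 samples), filled where the edgeR adjusted p was under 0.05 and coloured by annotation. Most points lie right of 0 on the left, with 7 filled, and on the right 6 filled points lie above 0 and 8 below, from H2BC11 at 3.86 to H4C8 at -3.33.

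Other histone and histone-handling genes also changed in rotenone 0.4 µM, where 19.1% of all genes tested were higher and 42.2% lower. Of 11 replication-independent histone genes tested 6 were higher and 1 lower. H3-3A, which encodes the replacement histone H3.3, rose from 17.7 ± 5.53 CPM (SD, n = 4) to 251 ± 66.1 CPM (SD, n = 2), which gave a log2 fold change of 3.85 ± 0.27 (edgeR adjusted p = 1.0e-06). H2AZ1 (2.69) and H2AZ2 (1.47), which encode the variant H2A.Z, H2AX (1.76), H1-10 (1.39) and H3-3B (0.69) were higher, and MACROH2A2 (-1.57) was lower.

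Of the 21 processing and transcription genes 12 were higher and 3 lower. LSM11 (2.43), the stem-loop binding protein gene SLBP (2.33), ZNF473 (2.37), CCNE1 (2.25), CSTF2 (2.02) and POU2F1 (1.96) rose most, and CPSF3, SYMPK and NCBP1 fell. SLBP had 67.3 ± 2.18 CPM (SD, n = 2) against 13.2 ± 2.16 CPM (SD, n = 4). Of 13 histone chaperones 4 were higher, 1 was lower, and of 22 S-phase genes 6 were higher and 1 lower. Of 21 G2/M genes 5 were higher and 0 lower, and of 5 p53 arrest genes 2 were higher and 1 lower. The counts of these lists have to be read against the 19.1% of all genes that were higher and the 42.2% that were lower.

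Rotenone at 0.2 µM had 1 sample (run 5), so its differences have no replicate check and its intervals cover counting error only. Genes were counted here if they had at least 50 UMIs on the side with the higher CPM. Of 33 such histone genes, 6 were at least 2-fold higher than the summed DMSO samples and 6 at least 2-fold lower, against 14.8% and 27.2% of all 20686 genes. H4C4 had 6.38 against 0.443 CPM (log2 ratio 3.85, 95% interval 3.26 to 4.50), H4C2, another H4 gene, 1.55 against 0.185 CPM (3.07), H2BC11 16.9 against 4.93 CPM (1.78), and H1-6, the testis linker histone gene, which lies within the H2BC4 span on the same strand, 0.618 against 0.203 CPM (1.61). H2AC6 reached 194 against 78.8 CPM (1.30), its highest level in any sample. H4C4, H4C2 and H1-6 had only 24, 10 and 11 UMIs in DMSO against 619, 150 and 60 in the treated sample, so they entered the count through the side where they were high.

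On the lower side H3C12 had 1.56 against 7.88 CPM (log2 ratio -2.34, 95% interval -2.62 to -2.07), H2BC15 10.2 against 37.4 CPM (-1.88), H3C6 6.95 against 24.8 CPM (-1.84) and H4C8 0.721 against 2.03 CPM (-1.49). The summed H3 genes were at 13.2 against 38.2 CPM, a log2 ratio of -1.54 (95% interval -1.64 to -1.44), and -1.53 against the DMSO sample of the same run. The same direction as at 0.4 µM was thus seen for H2BC11, H4C4, H2AC6, H3C12, H2BC15, H3C6 and H4C8, though H4C8 lay within the range of the DMSO samples. So did other genes called at 0.4 µM, namely H2BC18 (18.2 CPM), H2BC4 (22.4 CPM), H4C3 (8.82 CPM) and H2AC15 (1.12 CPM). H1-4 (24.3 CPM) and H2AC7 (2.94 CPM) lay above every DMSO sample and H2BC5 (20.0 CPM) below. The samples at 0.2 µM and 0.4 µM are compared with the same DMSO samples.

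tBHQ at 3 µM (1 sample, run 4) had the highest compact sum of all, 227 CPM against 73.6 CPM in the summed DMSO samples (log2 ratio 1.63, 95% interval 1.55 to 1.70). The linker histone genes made most of it, with 146 against 28.3 CPM. By the same rule, of 18 histone genes 5 were at least 2-fold higher and 0 lower, where 0.466% of all 17385 genes were higher and 4.56% lower. They were H1-5 (7.60 against 0.812 CPM, log2 ratio 3.23), H1-4 (97.2 against 13.8 CPM, 2.82), the H2A genes H2AC11 (9.49 against 2.14 CPM, 2.15) and H2AC7 (5.91 against 1.62 CPM, 1.86), and H1-2 (39.2 against 13.4 CPM, 1.55). All 5 were compact, and H1-5, with 44 UMIs in DMSO, entered through its high side. Among genes with at least 50 UMIs in DMSO, H2AC12, H3C2, H2AC8, H2AC17 and the extended gene H3C10 were also over 2-fold higher, at log2 ratios of 1.12 to 1.89, but fell short of the limit with 23 to 48 UMIs in the treated sample. The extended sum differed little, at 306 against 257 CPM (log2 ratio 0.25). MKI67 UMIs were in 29.6% of these cells. MKI67 stood at 139 CPM, against 31.3 CPM in the DMSO sample of the same run but within the 20.1 to 231 CPM of all DMSO samples.

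The higher doses of tBHQ and the doses of brefeldin A showed no rise of that size. The summed linker histone genes were still higher in brefeldin A 0.001 µM (log2 ratio 0.72, 95% interval 0.56 to 0.88) and 0.1 µM (0.42, 0.28 to 0.56). They were at -0.07 in brefeldin A 0.01 µM, -0.20 in tBHQ 30 µM and 0.08 in tBHQ 300 µM, with intervals that include 0. In tBHQ 30 µM and 300 µM 0 of 23 histone genes were 2-fold higher (background 0.205% and 0.202%) and 7 and 6 were 2-fold lower (10.7% and 10.2%). In brefeldin A 0.001, 0.01 and 0.1 µM 0, 1 and 0 of 23 were higher (background 0.192%, 0.778% and 0.291%) and 5, 5 and 4 lower (7.15%, 5.19% and 2.59%). Counts were small among the lower genes, and in tBHQ 30 and 300 µM 6 of 7 and 5 of 6 of them had 0 to 2 UMIs in the treated sample. H2AC8 had 3 UMIs in brefeldin A 0.001 µM (log2 ratio -2.11, 95% interval -4.42 to -0.51). H4C3 was at 2.30 against 7.75 CPM in brefeldin A 0.01 µM (log2 ratio -1.75), H2BC12 at 1.94 against 4.41 CPM in brefeldin A 0.1 µM (-1.19) and H2BC11 at 2.14 against 4.93 CPM in tBHQ 300 µM (-1.21). H2BC21, an H2B gene, was the 1 higher, at 48.2 against 23.9 CPM in brefeldin A 0.01 µM (log2 ratio 1.01, 95% interval 0.85 to 1.17).

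These 6 conditions were all in run 4, whose DMSO sample was the lowest for the compact genes. H2AC8, H2AC11, H2AC12, H2BC12 and H3C2 had 0 UMIs in that DMSO sample, so the lower calls for them come from the DMSO samples of other runs. Against the DMSO sample of run 4 alone the compact sum was higher in all 6, by a log2 ratio of 0.73 (tBHQ 30 µM) to 2.84 (tBHQ 3 µM).

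In the other treatments with replicates the histone genes did not pass the test. By edgeR 0 of 34, 24 and 28 histone genes were called in etoposide 0.25, 2.5 and 25 µM, 0 of 30 in medium, 0 of 21 in troglitazone 50 µM and 0 of 35, 26 and 26 in tunicamycin 0.001, 0.01 and 0.1 µM. At an unadjusted p under 0.05 there were 2, 1, 2, 3, 0, 3, 5 and 4 in that order, and DESeq2 called 0 in each of them. With the run as a block edgeR called 3, 1, 0, 0, 0, 4, 0 and 3 higher in the same order. Of all genes it then called 71, 48, 156, 0, 25, 167, 11 and 68 higher, so the counts of 0 depend on leaving out the run. Without the block the background was as follows. The background was as low, with 0% of all genes called in either direction except 0.078% higher in troglitazone 50 µM and 0.00538% higher in tunicamycin 0.1 µM. The medians over the histone genes were between 0.08 (troglitazone 50 µM) and 0.46 (medium) on the log2 scale, while those over all genes were within 0.1 of 0.

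The spread between runs was wide there. The compact sum was 219 CPM in tunicamycin 0.1 µM run 3 and 72.9 CPM in run 4, and 171 CPM in troglitazone 50 µM run 3 and 44.7 CPM in run 4. In etoposide 25 µM it was 74.8 CPM in run 3 and 96.5 CPM in run 4, the latter above every DMSO sample. A p that misses the threshold in 2 samples against 4 does not show that the genes were at the same level.

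Within the samples, the compact genes followed MKI67. Cells were split in each sample into those with at least 1 MKI67 UMI and those with none. In DMSO the compact sum was 105, 47.8, 105 and 68.1 CPM in cells with MKI67 in runs 3 to 6 and 47.9, 28.7, 47.9 and 48.1 CPM in cells without. It was higher with MKI67 in 4 of 4 samples (median log2 ratio 0.93). The extended sum was 261, 205, 279 and 221 CPM with and 305, 242, 246 and 166 CPM without, higher in 2 of 4. Cells with MKI67 were also deeper, with a median of 73447 UMIs in 240 DMSO cells against 29363 in 543 without, 2 of these in a sample too small for the tests.

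Over the 35 samples with at least 10 cells on each side, the compact sum was higher in cells with MKI67 in 35 of 35, with a median log2 ratio of 1.09 and a range of 0.01 to 2.51. The extended sum was higher in 17 of 35, with a median of -0.03. In the DMSO samples 1 of 14 histone genes tested was higher, H1-4, and 0 were lower (edgeR with sample as a block, where 1.94% of 15564 genes were higher and 0.373% lower). DESeq2 also called 1, and 5 had an unadjusted p under 0.05. Without a filter on low counts 9 of 54 were higher and 0 lower (background 1.87% and 0.657% of 38030). H1-4 had 25.6, 15.3, 17.6 and 17.3 CPM in cells with MKI67 and 7.88, 5.87, 7.75 and 9.67 CPM in cells without, so the 2 sides did not overlap. The log2 fold change was 1.29 ± 0.18 (edgeR adjusted p = 0.0027), and without run 3 it was 1.11 (edgeR adjusted p = 0.083).

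**Figure D4:**
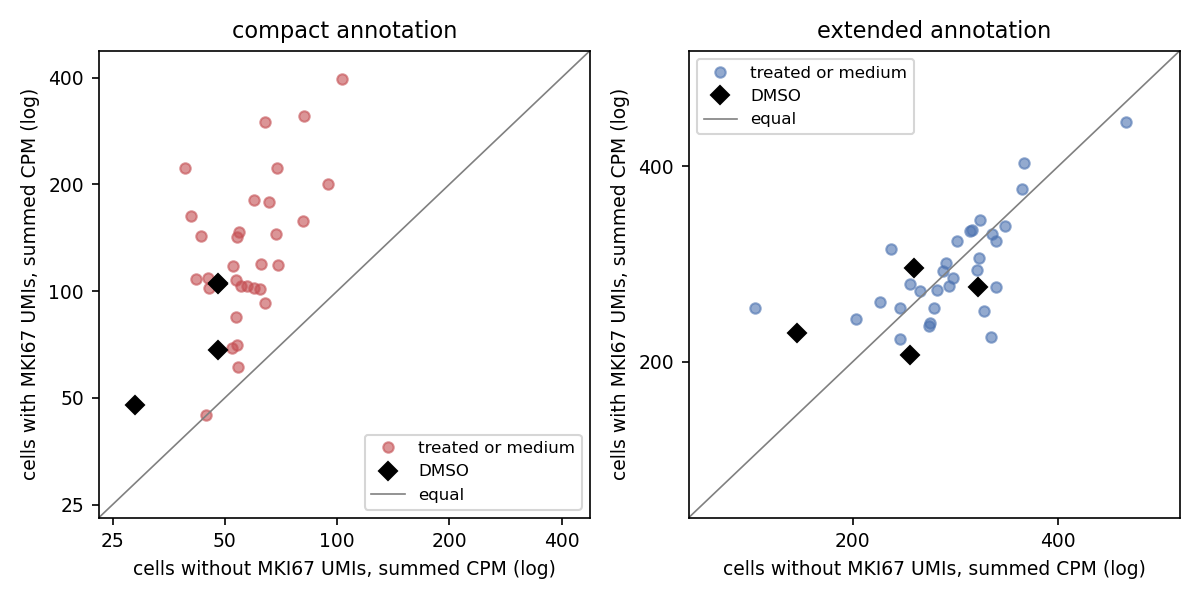
Summed CPM of the compact (left) and extended (right) histone genes in cells with MKI67 UMIs against cells without, both axes logarithmic, 1 point per sample (35), DMSO as diamonds, with a line where both are equal. In the left panel all points lie above the line, and 2 DMSO samples coincide near 47.9 and 105 CPM. In the right panel 17 of 35 lie above it.

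With all 35 samples in the fit, 10 of 20 histone genes were higher in cells with MKI67 and 0 lower, where 23.7% of 16526 genes were higher and 12.2% lower (edgeR, adjusted p under 0.05). Of 9 compact genes 8 were higher, and of 11 extended genes 2. H2AC11 changed most: its median was 2.94 CPM with MKI67 (lowest 0, highest 19.8) and 0.876 CPM without (lowest 0, highest 2.56), and it was higher in 34 of 35 samples (log2 fold change 1.83 ± 0.15, edgeR adjusted p = 3.9e-13). H1-4 had a median of 33.4 against 13.8 CPM (1.25 ± 0.09, edgeR adjusted p = 2.5e-15) and was higher in 34 of 35. H4C3 had a median of 9.23 against 3.62 CPM (1.22 ± 0.11, edgeR adjusted p = 8.7e-12) and was higher in 33 of 35.

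The linker gene H1-2 had a log2 fold change of 0.99, the H2A gene H2AC20 of 0.81 and the H2B gene H2BC12 of 0.71. The 2 extended genes that were higher were H2BC11 (0.89) and H3C10 (0.74), the latter an H3 gene. The abundant extended genes were close to 0: H2AC6 was at -0.08 ± 0.04, H2BC5 at 0.01 ± 0.06, H2BC15 at -0.05 ± 0.05 and H2BC4 at 0.04 ± 0.05 (SE). Without a filter on low counts 29 of 61 histone genes were higher and 0 lower (background 8.16% and 4.12% of 46998), of which 27 were compact. The largest were low genes, with H1-5 at 4.49, H3C2 at 3.30 and H3C3 at 3.19 (log2). H1-5 had 1559 UMIs in cells with MKI67 and 31 in cells without.

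Depth was then made equal by thinning each cell to 10000 UMIs, which left out 133 of 8406 cells. Pools of cells over samples include up to 66 cells of samples too small for the tests. In DMSO, with cells kept on the side that their MKI67 UMIs gave before thinning, the compact genes were at 157, 46.2, 146 and 86.7 CPM in cells with MKI67 in runs 3 to 6 and at 45.7, 26.9, 49.5 and 58.1 CPM in cells without. They were again higher in 4 of 4 samples. The extended genes were at 251, 215, 291 and 300 CPM with and 296, 238, 231 and 147 CPM without, higher in 2 of 4. The share of thinned cells with a compact UMI was 55.2%, 46.2%, 54.4% and 73.3% with MKI67 and 37.9%, 24.0%, 37.7% and 36.5% without, and over all DMSO cells 91.9% and 72.3% unthinned. Run 4 and run 6 had 13 and 15 cells with MKI67, so their values rest on few cells. A split made anew on the MKI67 UMIs left after thinning moved cells to the side without (135 with and 625 without, against 236 and 524) and gave 209 and 46.7 CPM for the compact and 248 and 247 CPM for the extended genes. This thinned comparison by the first split was added after seeing the data. No cell type in these samples is known to lack histone transcripts, so the background from free RNA could not be set against these shares.

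Cells were also sorted by the UMIs of 22 S-phase genes and 21 G2/M genes, with a threshold of 10 thinned UMIs in each that was set after the data were seen. The sums that follow are of the unthinned UMIs of the sorted cells, so depth is not equal in them. Over all samples the compact sum was 65.5 CPM in 6659 cells low in both lists and 110 CPM in 147 cells with the S-phase list only. It was 471 CPM in 569 cells with both and 173 CPM in 898 cells with the G2/M list only. The extended sum in the same order was 280, 188, 207 and 281 CPM. From thinned UMIs the compact sum was 63.6, 84.4, 585 and 179 CPM in that order, and the extended sum 268, 144, 200 and 285 CPM. In the 16 samples with enough cells the compact sum was higher in cells with both than in cells with neither in 16 (171 to 1283 CPM against 46.2 to 98.3 CPM), and the extended sum in 3. These sums per sample were also of unthinned UMIs. Cells are not replicates, and this is a description.

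Gene by gene the ratio of cells with both lists to cells with neither had a median of 8.16 over the 28 compact genes with at least 100 UMIs, of which 25 were over 2-fold, and of 0.77 over 13 extended genes, of which 1 was, H3C10 at 5.39. H1-5 (86.6), H3C2 (44.9) and H3C3 (31.3) were again the largest. H1-4 was at 7.62 and H2AC6 at 0.46. These ratios pool unthinned UMIs over all treatments, so treatment and depth enter them. Of the cells with both lists, 202 came from tunicamycin 0.001 µM run 3. The stem-loops of H1-4 and H2AC6, printed above, are the same 16 bases, a version shared by 38 genes, and the bases just after it differ. The part of these sequences in the ratios was not tested.

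**Figure D5:**
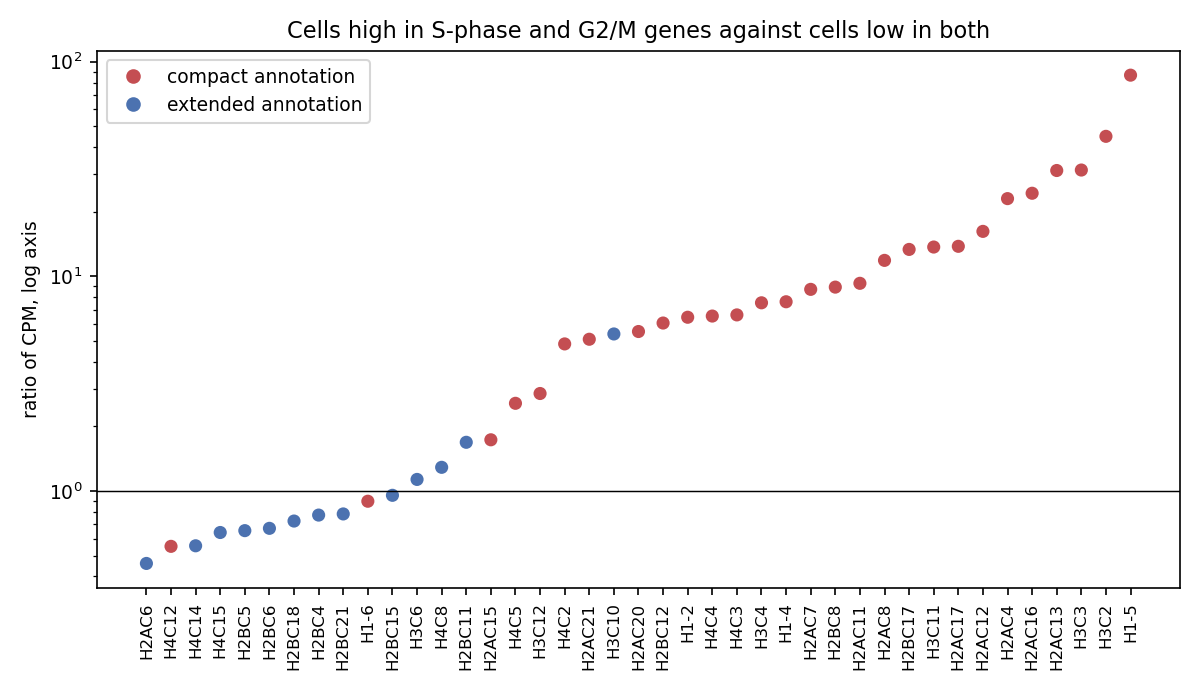
Ratio (log axis) of CPM in cells high in both the S-phase and the G2/M list to CPM in cells low in both, for each of the 41 histone genes with at least 100 UMIs, coloured by annotation, with a line at 1. UMIs are unthinned and pooled over all treatments. Compact genes fill the right of the plot up to H1-5 at 86.6, and extended genes other than H3C10 lie between 0.46 and 1.69.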

How the data were processed

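Single-cell libraries of HepaRG cells were made with a split-pool kit (Parse Biosciences), and 8 sublibraries of 1 pool were sequenced. Per the study's methods and the file headers, the authors read out cell barcodes, mapped the reads on GRCh38 and counted each UMI of a gene once in a cell, so the deposited values are raw UMI counts per gene and cell. The pipeline version and the annotation were not given in the sources used here, nor were rules for multimapping reads and strand, so overlapping and near-identical histone genes are uncertain.

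Treatment, dose, run and time came from the sample name in the cell table. Rotenone 0.8 µM, which the labels list, was not analysed here, and troglitazone is listed in the labels at other doses than the 50 µM of the cell table. A cell was kept if 500 or more genes were detected and mitochondrial genes gave no more than 20% of its UMIs, and UMIs were summed per sample. The 9 samples with under 30 such cells (66 cells in all) were left out of the tests. Doublets were not called here. Depth per sample is given with the results and sets the counting error. Nothing says that samples came from separate cultures, so p-values measure only the spread between these samples, which may be technical.

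Sums were compared with DMSO by edgeR (version 4.0.16, R version 4.3.3; glmQLFit, glmQLFTest), scaled by total UMIs, after filterByExpr, with Benjamini-Hochberg adjustment over all genes tested. The SE is the size of the log2 fold change over the square root of F. The MKI67 comparison had the sample as a block and at least 10 cells on each side. Conditions with 1 sample have a log2 ratio with an exact conditional binomial 95% interval, for counting error only. Stem-loops were searched in the 200 bases after each stop codon in hg38, with GENCODE gene models, and promoters came from RefSeq. The scripts were tested on simulated data. Alternatives were DESeq2 (version 1.42.0), TMM factors, size factors, totals without mitochondrial genes, no gene filter, all cells, 1 fit over all samples, the run as a block and leaving out each sample.

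Histone genes were named if among the 12 highest in DMSO, among the 6 largest changes past the test in each direction (8 for MKI67, 4 at least 2-fold with 50 UMIs where there was 1 sample), or H3C15 or H4C15. From the other lists up to 6 genes past the test were named. The histone genes and the gene lists were chosen with earlier results of these data known. A result of the replication-independent histone genes is not reported here.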

Additional observations from a re-analysis of the deposited data

Results flagged for a closer look

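Of 55 sets of 4 samples checked, 2 had a sample far from the other 3, where chance gives about 1 in 20. H2AC6 in DMSO was at 59.6 CPM in run 6 and at 80.2 to 81.7 CPM in runs 3 to 5. H2AC7 in troglitazone 50 µM was at 7.09 CPM in run 3 and at 0.527 to 0.903 CPM in runs 4 to 6.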

How the results depend on the processing

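Of the 27 log2 fold changes of histone genes followed through the alternatives, none changed sign. H1-2, H2AC20, H2BC11, H3C12 and H4C3 in the MKI67 comparison were included though they were called only with all treatments in the fit. Of the 402 values 36 fell short of the threshold that they passed before and 34 passed it only then. All of the 34 were of these added genes. The count of histone genes called moved as follows. In cycloheximide 20 µM it was 7, and 4 with the run as a replicate block or with the DMSO samples of the same runs only (5 to 8 when 1 sample was left out). In rotenone 0.4 µM it was 14, and 12 to 15 when 1 sample was left out. In cycloheximide 0.2 µM it was 0, and 1 by DESeq2, without a gene filter or with the block. In cycloheximide 2 µM it was 0, and 2 by DESeq2 and 3 without a filter. In etoposide 0.25 µM it was 0, and 1 without a filter and 3 with the block. In etoposide 2.5 µM it was 0, and 1 with the block. In medium it was 0, and 1 without a filter. In tunicamycin 0.001 µM it was 0, and 3 without a filter and 4 with the block. In tunicamycin 0.1 µM it was 0, and 3 under each of these and 0 to 1 when 1 sample was left out, the 1 being without its run 4 sample. In the MKI67 comparison it was 1, and 6 after thinning to 10000 UMIs with the split made anew, 12 with at least 3 MKI67 UMIs against 0, 9 without a filter, 0 without DMSO run 3, 2 without run 4 and 3 without run 6. Over all treatments it was 10, and 10 without mitochondrial genes in the total, 29 without a filter, 11 with TMM factors (10 higher and 1 lower) and 4 after thinning (3 higher and 1 lower). Genes near 0 there did change sign: H2BC4 was at 0.15 in DMSO and -0.08 thinned, and H2BC15 at 0.11 in DMSO and -0.05 over all treatments. Against the DMSO sample of the same run the summed histone genes had log2 ratios of 0.50, 0.19 and 0.36 in brefeldin A 0.001, 0.01 and 0.1 µM, where all DMSO samples gave 0.20, -0.12 and 0.06, and of 0.99, 0.13 and 0.51 in tBHQ 3, 30 and 300 µM, where all DMSO samples gave 0.69, -0.17 and 0.20. With all cells the value in tBHQ 300 µM was -0.01. These same-run comparisons, and the thinned, unfiltered, TMM and non-mitochondrial settings over all treatments, were chosen after seeing the data. The cause of these shifts was not tested. The labels do not say that a run marks a shared culture or day. Deviations of same-run samples from their group means correlated from -0.25 to 0.64 over 10937 genes. The correlation was under 0.1 in cycloheximide 2 and 20 µM, etoposide 25 µM, rotenone 0.4 µM, medium run 5 and troglitazone 50 µM run 5. In all others it was 0.26 to 0.64. The runs were not taken to pair the samples in the main tests, and the counts of calls depend on that choice. With the block 12 histone genes were called in rotenone 0.4 µM. Of all genes the block called 444 higher and 1274 lower in cycloheximide 20 µM, in place of 1220 and 2474, and 167 higher and 107 lower in tunicamycin 0.001 µM, 82 and 57 in cycloheximide 0.2 µM, 71 and 47 in etoposide 0.25 µM and 156 and 92 in etoposide 25 µM, in place of 0 in each. In rotenone 0.4 µM the histone calls were 6 higher and 8 lower, and 10 and 6 with DESeq2 size factors.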
